A study of Mus musculus with 10 samples.

Results

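The genes described here are the 73 of 18223 in the deposited gene table whose KEGG pathway entry names Glycolysis / Gluconeogenesis. Of these, 63 were placed at a metabolic step. The trunk from glucose phosphorylation to lactate has 11 steps and 31 of the genes, the pyruvate dehydrogenase complex has 4, the enzymes that bypass the irreversible steps in gluconeogenesis have 7, and side branches for other sugars, alcohols, aldehydes and acetate have 21. The other 10 carry the same entry without a product known here as an enzyme of the pathway, and they are given apart.

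Glycolysis splits glucose into pyruvate in the cytosol and yields ATP and NADH. Lactate dehydrogenase then turns pyruvate into lactate and restores NAD, while the pyruvate dehydrogenase complex sends pyruvate into the mitochondrial tricarboxylic acid cycle. Many tumours take up much glucose and release lactate even where oxygen is present, and low oxygen raises most trunk enzymes through the transcription factor HIF-1. Most steps have isoenzymes, products of separate genes that catalyse the same reaction in different tissues, such as the muscle forms Pfkm, Pgam2 and Eno3.

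The libraries came from subcutaneous tumours of MC38, a mouse colon adenocarcinoma cell line, in groups of high tumour burden (HTB, n = 5) and low tumour burden (LTB, n = 5). HTB is labelled with 2000000 and LTB with 500000 in the treatment field, each for 14 days, which is taken here as cells injected and days of growth. No other agent, allele, host strain, age, sex or measured tumour size is given in the labels, and nothing says that the 5 libraries of a group came from 5 animals. The p-values therefore measure the spread between these libraries, which may be in part technical. Whole tumours mix tumour cells with immune and connective tissue cells, and in such bulk samples fewer cells of a type and less RNA per cell cannot be told apart.

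Library totals ran from 24884291 to 27185167 estimated reads in HTB and from 23070917 to 26880190 in LTB. Levels are in CPM, the count of a gene scaled to a common library total, with totals adjusted by TMM, a correction for composition. HTB replicate 2 stood apart: its 12 skeletal muscle markers summed to 15826 CPM, against 10.9 to 71.3 CPM in the remaining libraries of HTB and 6.76 to 9.39 CPM in LTB. Those remaining HTB sums also lay above the LTB sums. Of 6 muscle markers tested, 3 were called higher in HTB with all libraries and 2 without HTB replicate 2. The 2 were Tnnt3 (log2 fold change 1.72 ± 0.31, adjusted p = 0.00557) and Acta1 (4.07 ± 1.09, 0.0255, edgeR). Its 8 fat cell markers summed to 4005 CPM, against 84 to 93.4 CPM in the remaining libraries of HTB and 84.8 to 94.8 CPM in LTB, and of these markers Plin1, Cidec and Lep were at 0 in most other libraries. In HTB replicate 2 the 4 endothelial markers summed to 260.2 CPM, against 78.9 to 90.6 CPM in the remaining libraries of HTB and 62 to 103 CPM in LTB. Results are therefore given with and without that library. The 8 leukocyte and macrophage markers had sums between 541 and 882 CPM in HTB libraries, against 1052 to 2279 CPM in LTB libraries, 6 of the 8 were lower in HTB, and LTB replicate 1 had the highest sum. The 6 T cell markers summed to 14.2 to 38 CPM in HTB, against 36.7 to 167 CPM in LTB, and 4 of the 6 were called lower. The 5 epithelial markers, checked for the labelled colon origin, were low: they summed to 2.56 to 6.74 CPM in HTB, against 6.23 to 16.1 CPM in LTB. Of these the keratins Krt8, Krt18 and Krt19 were at or near 0, with at most 0.207 CPM in HTB and 0.156 CPM in LTB, and Epcam had 0.166 to 0.952 CPM in HTB, against 0.467 to 1.82 CPM in LTB. Cdh1, E-cadherin, had 2.07 to 5.6 CPM in HTB, against 5.53 to 15.3 CPM in LTB, and was called lower (log2 fold change -1.36 ± 0.35, adjusted p = 0.0332, edgeR).

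Upstream sequences of trunk genes that were lower in HTB are shown first, since HIF-1 is known to bind the letters ACGTG or GCGTG in several of these promoters. Each is the 250 bases before the RefSeq start of the gene in GRCm38.p6, 5′ to 3′ on the strand of the gene, with both motifs capitalised on either strand (read as CACGT and CACGC on the reverse). Where a gene had several starts the most upstream was taken. Pgk1, Ldha, Pgam1 and Pfkp were chosen from those with 2 or 3 capital runs, and Pdha1, of the pyruvate dehydrogenase complex, is shown because it holds 3 runs and did not pass the test. The windows are chrX:106186850-106187099 (plus strand) for Pgk1, chr7:46845554-46845803 (plus) for Ldha, chr19:41911621-41911870 (plus) for Pgam1, chr13:6648772-6649021 (minus) for Pfkp and chrX:160138431-160138680 (minus) for Pdha1.
Pgk1: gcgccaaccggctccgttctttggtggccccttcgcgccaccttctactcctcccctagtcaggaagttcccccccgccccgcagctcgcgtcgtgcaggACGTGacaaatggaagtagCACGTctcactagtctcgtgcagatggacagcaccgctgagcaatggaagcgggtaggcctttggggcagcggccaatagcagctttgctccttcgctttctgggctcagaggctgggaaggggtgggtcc
Ldha: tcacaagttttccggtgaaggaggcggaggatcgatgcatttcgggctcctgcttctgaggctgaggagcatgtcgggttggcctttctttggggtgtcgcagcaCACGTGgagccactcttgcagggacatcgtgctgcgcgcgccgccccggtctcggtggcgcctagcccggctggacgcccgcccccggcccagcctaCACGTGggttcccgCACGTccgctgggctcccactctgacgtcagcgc
Pgam1: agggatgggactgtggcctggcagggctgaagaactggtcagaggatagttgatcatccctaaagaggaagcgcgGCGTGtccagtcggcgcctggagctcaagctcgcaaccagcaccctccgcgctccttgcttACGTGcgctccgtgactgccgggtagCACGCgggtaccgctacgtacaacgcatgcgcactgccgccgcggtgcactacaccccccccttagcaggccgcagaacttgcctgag
Pfkp: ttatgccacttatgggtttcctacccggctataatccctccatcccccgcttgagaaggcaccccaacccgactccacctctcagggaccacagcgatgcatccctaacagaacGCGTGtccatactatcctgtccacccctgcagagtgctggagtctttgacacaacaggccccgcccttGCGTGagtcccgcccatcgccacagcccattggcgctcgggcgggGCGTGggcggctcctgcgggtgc
Pdha1: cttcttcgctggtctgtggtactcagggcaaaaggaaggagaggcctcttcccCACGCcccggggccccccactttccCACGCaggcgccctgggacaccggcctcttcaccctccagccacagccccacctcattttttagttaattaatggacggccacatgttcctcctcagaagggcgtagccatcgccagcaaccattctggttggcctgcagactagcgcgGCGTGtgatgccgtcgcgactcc
In the Ldha window, 2 of the runs are CACGTG, the E-box, which holds ACGTG on both strands. Either motif was present in 9 of the 13 windows (69.2%) of trunk genes lower in HTB, in 5 of the 12 windows (41.7%) of trunk genes that were tested and did not pass, in 2 of 4 windows (50%) of the pyruvate dehydrogenase complex, and in 38.6% of the 27025 genes of the promoter table. Those 27025 include genes that were not tested here, so their share is not that of tested genes alone. The windows of Pkm, Tpi1, Gpi1 and Hk1 held neither. These are matches of letters and not binding sites, and a window with none says only that the letters are not in these 250 bases.

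At each step of the glycolytic trunk at least 1 gene was lower in HTB, and none was called higher. Of the 31 trunk genes, 25 had enough reads to be tested, 13 fell and 0 rose in HTB, and the 13 covered all 11 steps. At the aldolase step the only such gene was Aldoc, at 1.2 to 7.87 CPM, where Aldoa, at 423 to 2383 CPM, did not pass. The call is an adjusted p under 0.05 in edgeR's quasi-likelihood test, with Benjamini-Hochberg adjustment over the 13469 genes tested, of which 7.51% were called lower and 3.91% higher. The median log2 fold change, HTB over LTB, was -0.51 over the 25 trunk genes and 0.02 over all genes tested. Over all 73 genes, 57 were tested, 14 were called lower and 1 was called higher, and the other 42 did not pass. Each of the 5 HTB libraries lay below each of the 5 LTB libraries in 10 of the 25 trunk genes and 13 of the 57, against 7.06% of all genes tested, and lay above in 1 of the 57, against 4.68%. At an unadjusted p under 0.05, edgeR placed 14 trunk genes lower and 3 higher, where 15.2% of all genes were lower and 13.9% higher. DESeq2 called 13 trunk genes lower and 1 higher (Bpgm), where it called 9.94% of genes lower and 7.56% higher. Limma voom called 13 lower and 0 higher, where it called 7.42% of genes lower and 3.56% higher. Markers of other cells also moved: 6 of 8 for leukocytes and macrophages, 4 of 6 for T cells and the epithelial Cdh1 were called lower. Of erythroid markers 5 of 5, and of tested skeletal muscle markers 3 of 6, were called higher. Of tested fibroblast, endothelial and neutrophil markers, 0 of 6, 0 of 4 and 0 of 4 were called in either direction. Without HTB replicate 2, 1 fibroblast and 1 endothelial marker were called higher. The part of all these markers in the trunk counts was not tested.

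Without HTB replicate 2 the count of trunk genes called lower became 17 of 25, again with 0 higher, and the median was -0.61. Over the 73 genes it became 23 lower and 2 higher, where 12.7% and 9.77% of the 13551 genes then tested were called lower and higher (22.4% in either direction). All 14 genes called lower with every library were called lower without that one. The genes added on the trunk were Hk2, Aldoa, Eno3 and Ldhb.

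**Figure D1:**
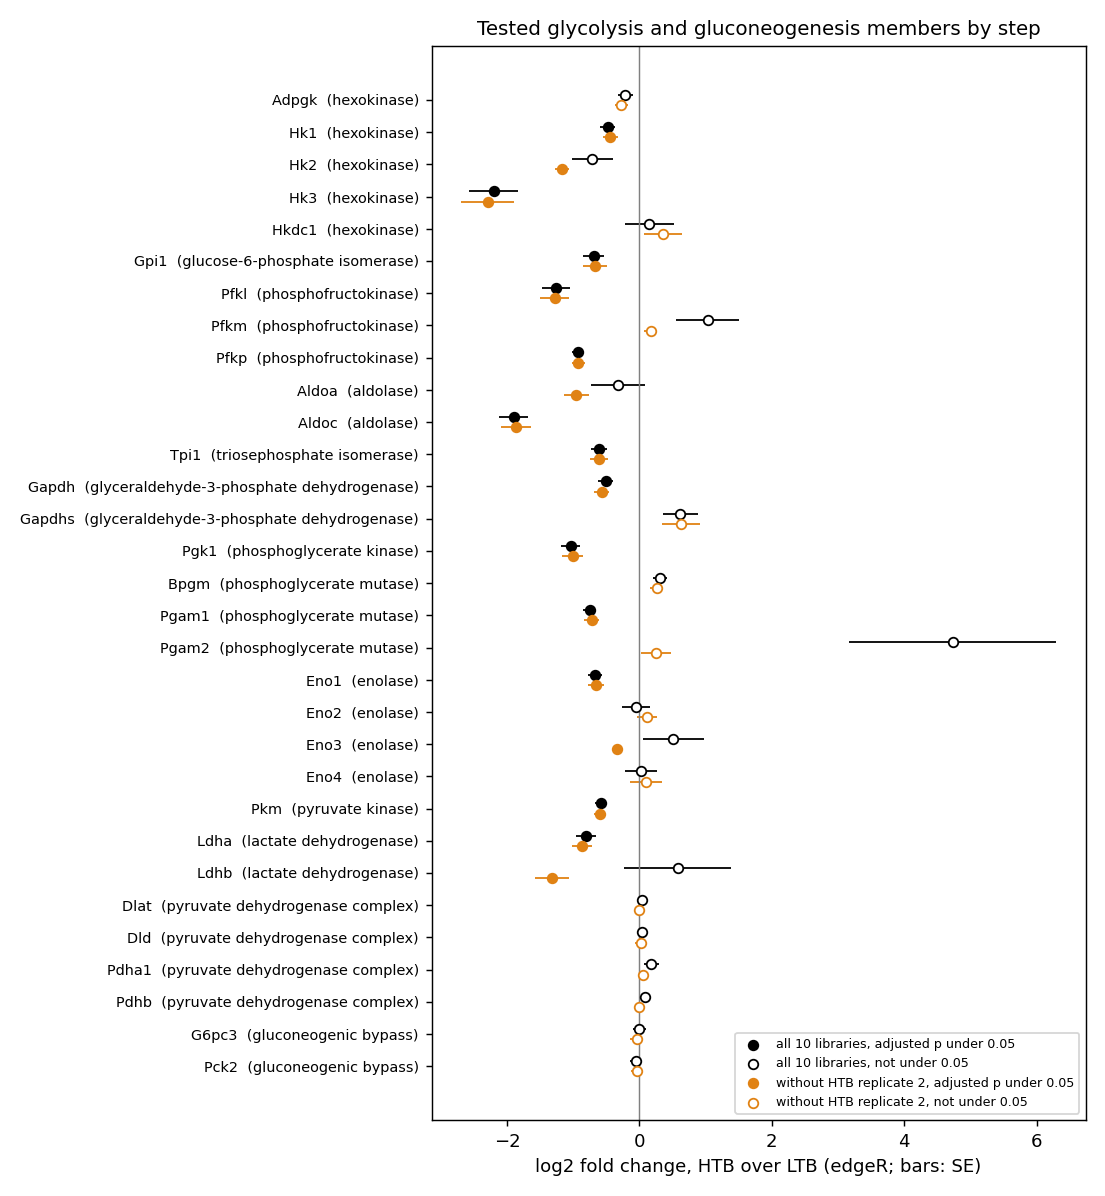
Log2 fold change, HTB over LTB, of the 31 tested genes of the trunk, the pyruvate dehydrogenase complex and the gluconeogenic bypass, by step, with all 10 libraries (black) and without HTB replicate 2 (orange). Bars are standard errors and filled points have an adjusted p under 0.05; most trunk genes lie left of 0, the 4 genes of the pyruvate dehydrogenase complex lie near 0, and Pfkm, Aldoa, Pgam2, Eno3 and Ldhb shift left without HTB replicate 2.

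Glucose is trapped in the cell by phosphorylation, the hexokinase step. Hk1 (chromosome 10, 62268855 to 62379916; here and below the whole gene span of the deposited table in GRCm38, exons and introns together), the hexokinase found in most tissues, had 154, 131, 137, 132 and 174 CPM in HTB, against 172, 209, 194, 197 and 245 CPM in LTB, in the order of replicates 1 to 5, as for each gene below. Its log2 fold change was -0.48 ± 0.11 (SE; adjusted p = 0.0195, edgeR), and the groups overlapped only by HTB replicate 5 over LTB replicate 1. That call was lost without HTB replicate 3 (adjusted p = 0.0568) or HTB replicate 4 (0.0583).

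Hk3 (chromosome 13, 55002883 to 55023189), the hexokinase best known from myeloid cells, had the largest fall of the step. In HTB it had 9.91, 10.2, 6.04, 7.79 and 7.36 CPM, against 82.9, 21.6, 33.3, 25.6 and 26.6 CPM in LTB. Every HTB library was below every LTB library, and LTB replicate 1, the library with the highest leukocyte marker sum, was far above the rest of its group. The log2 fold change was -2.20 ± 0.37 (SE; adjusted p = 0.00569, edgeR). The leukocyte and macrophage markers moved the same way, with sums of 541 to 882 CPM in HTB, against sums of 1052 to 2279 CPM in LTB, and their part in the fall of Hk3 was not tested.

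Hk2, the inducible hexokinase of muscle, fat and many tumours, turned on 1 library. It had 38.2, 119, 39.3, 48.3 and 37.6 CPM in HTB, against 98.5, 83.1, 82.4, 90.6 and 106 CPM in LTB, so that HTB replicate 2 alone was above the LTB group and the other 4 lay below it. With all libraries the log2 fold change was -0.71 ± 0.31 (adjusted p = 0.156), and without HTB replicate 2 it was -1.17 ± 0.10 (adjusted p = 0.000512, edgeR). Adpgk, an ADP-dependent glucokinase, had a log2 fold change of -0.21 ± 0.11 (adjusted p = 0.223) and Hkdc1, a hexokinase-like gene, of 0.15 ± 0.37 (0.819), and neither passed.

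Gpi1 and the phosphofructokinases catalyse the next 2 steps, and phosphofructokinase commits sugar to glycolysis. Gpi1 (chromosome 7, 34201327 to 34230336), glucose-6-phosphate isomerase, had 432, 413, 343, 392 and 587 CPM in HTB, against 589.7, 718, 560.4, 713 and 919 CPM in LTB. Its log2 fold change was -0.69 ± 0.16 (SE; adjusted p = 0.0243), and only HTB replicate 5 reached the range of LTB. Without HTB replicate 3 or 4 the adjusted p was 0.0638 or 0.066 (edgeR).

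Pfkl (chromosome 10, 77986947 to 78009796), the liver form of phosphofructokinase, had 99.7, 90.5, 51.7, 71.5 and 110.4 CPM in HTB and 165, 211, 162, 212 and 265 CPM in LTB. Its HTB mean was 41.7% of its LTB mean, no libraries overlapped, and the log2 fold change was -1.26 ± 0.21 (SE; adjusted p = 0.00531). Pfkp (chromosome 13, 6579874 to 6648792), the platelet form, had 70.9, 62, 52, 62.5 and 67.5 CPM in HTB and 115, 122, 114, 111 and 139 CPM in LTB, again with a gap between the groups and a log2 fold change of -0.93 ± 0.09 (adjusted p = 0.000593, edgeR). Pfkm, the muscle form, did not pass: it had 58.6, 310.5, 59.9, 59.6 and 67.6 CPM in HTB and 45.6, 54.2, 49, 59.1 and 65.1 CPM in LTB, with a log2 fold change of 1.03 ± 0.47 (adjusted p = 0.178) and of 0.17 ± 0.10 (adjusted p = 0.233) without HTB replicate 2. Of the 3 forms, Pfkm alone had no call in either fit.

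Aldolase splits the 6-carbon sugar, and triosephosphate isomerase interconverts the products. Aldoa, the form of muscle and most other tissues, had 698, 2383, 423, 547 and 890.2 CPM in HTB and 1388, 1233, 971, 1319 and 1258 CPM in LTB. Outside HTB replicate 2, all HTB libraries lay below all LTB libraries, and in HTB replicate 2 the level was above them all. Its log2 fold change was -0.32 ± 0.41 (adjusted p = 0.636) with that library and -0.95 ± 0.19 (adjusted p = 0.00939, edgeR) without it. Aldoc (chromosome 11, 78323073 to 78327781), the form first known from brain, had 1.53, 1.2, 1.39, 1.41 and 1.25 CPM in HTB and 4.05, 5.06, 4.15, 4.35 and 7.87 CPM in LTB, a log2 change of -1.90 ± 0.22 (SE, with adjusted p = 0.000984) with no overlap. Per kilobase of exon it was a minor form, at 0.456 ± 0.0445 CPM per kb in HTB and 1.71 ± 0.538 in LTB (SD, n = 5 each), where Aldoa had 542 ± 438 in HTB and 676 ± 87.1 in LTB. Tpi1 (chromosome 6, 124796382 to 124814296) had 491, 479, 400.4, 446 and 551 CPM in HTB and 693, 728, 579, 726 and 886 CPM in LTB, with the highest HTB library under the lowest LTB library and a log2 change of -0.61 ± 0.12 (SE, with adjusted p = 0.00994).

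The lower part of the trunk yields ATP and ends in lactate. Gapdh (chromosome 6, 125161721 to 125166572), glyceraldehyde-3-phosphate dehydrogenase and a common normalisation gene, had 2990.3, 3513, 2566, 2758 and 3260.4 CPM in HTB and 4499, 4232, 3395, 4451 and 4901 CPM in LTB. The log2 fold change was -0.51 ± 0.11 (SE; adjusted p = 0.0176), HTB replicate 2 overlapped with LTB replicate 3, and the adjusted p was 0.0509 without HTB replicate 4 (edgeR). Gapdhs, the sperm form, was at 0.568 ± 0.0962 CPM in HTB and 0.368 ± 0.11 CPM in LTB (SD, n = 5 each) and did not pass (adjusted p = 0.156). Gapdh, Pgk1, Pgam1, Eno1, Ldha, Aldoa and Tpi1 have near-identical pseudogenes or copies in the mouse genome, and the sources used here do not state how reads shared with these were assigned, so that a part of each level is uncertain.

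Pgk1 (chromosome X, 106187100 to 106203699), phosphoglycerate kinase, makes the first ATP of the pathway and had the largest fall among the single-gene steps. It had 529, 472, 402, 527 and 617 CPM in HTB and 957, 1002, 835, 1005 and 1438 CPM in LTB, and the HTB mean was 48.6% of the LTB mean. Its log2 fold change was -1.04 ± 0.15 (SE; adjusted p = 0.0034, edgeR), with no overlap between the groups. LTB replicate 5 was well above the other 4 of its group.

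At the phosphoglycerate mutase step, Pgam1 (chromosome 19, 41911871 to 41922399), the form of most tissues, fell. It had 369, 340.3, 305, 361 and 425 CPM in HTB and 655, 573, 513, 606 and 673 CPM in LTB, a gap that no library crossed, and a log2 change of -0.75 ± 0.10 (SE, with adjusted p = 0.00236). Bpgm, which makes 2,3-bisphosphoglycerate in red blood cells, had 13.1, 16.2, 14.5, 13.8 and 13.2 CPM in HTB and 13.6, 10.5, 10.6, 11.6 and 10.5 CPM in LTB, with a log2 fold change of 0.31 ± 0.10 (adjusted p = 0.0761) that did not pass. It was called higher without LTB replicate 1 (0.38, adjusted p = 0.0321), and without LTB replicate 1 and HTB replicate 2 together (0.34, 0.0206), an alternative added after seeing the data. In the authors' deposited table Bpgm has a log2 fold change of 0.32 and a q of 0.0353. The 5 erythroid markers, haemoglobin genes and Alas2, had sums of 47.8 to 309 CPM in HTB, against 15.8 to 32 CPM in LTB, all 5 were called higher, and their part in the level of Bpgm was not tested.

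Eno1 (chromosome 4, 150236726 to 150248873), the enolase of most tissues, had 1521, 1442, 1301, 1462 and 1692 CPM in HTB and 2323, 2282, 1905, 2442 and 2872 CPM in LTB. The groups did not overlap, and the log2 fold change was -0.67 ± 0.11 (SE; adjusted p = 0.00468). Eno2, the neuronal form, and Eno4, a form known from sperm, had log2 fold changes of -0.05 ± 0.21 and 0.03 ± 0.24 and did not pass (adjusted p = 0.907 and 0.953). Pkm (chromosome 9, 59656368 to 59679375), the pyruvate kinase of muscle and tumours, had 1708, 1799, 1556, 1632 and 1971 CPM in HTB and 2542, 2569, 2274, 2618 and 2989.9 CPM in LTB, a log2 change of -0.58 ± 0.09 (SE, with adjusted p = 0.00342, edgeR) with no overlap. Its splice forms M1 and M2 are summed in the table and cannot be told apart here.

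Ldha (chromosome 7, 46845804 to 46855627), the lactate dehydrogenase subunit that favours lactate, had 807, 1008, 603, 772 and 1007 CPM in HTB and 1481, 1381, 1177, 1462 and 1789.7 CPM in LTB. No HTB library reached the LTB range, and the log2 fold change was -0.80 ± 0.15 (SE; adjusted p = 0.01). Ldhb, the heart-type subunit, was low, at 0.583, 8.84, 0.622, 0.725 and 0.44 CPM in HTB and 2.01, 1.17, 1.67, 1.3 and 1.29 CPM in LTB. Its log2 fold change was 0.58 ± 0.81 (adjusted p = 0.668) with all libraries and turned to -1.32 ± 0.25 (adjusted p = 0.00662, edgeR) without HTB replicate 2.

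**Figure D2:**
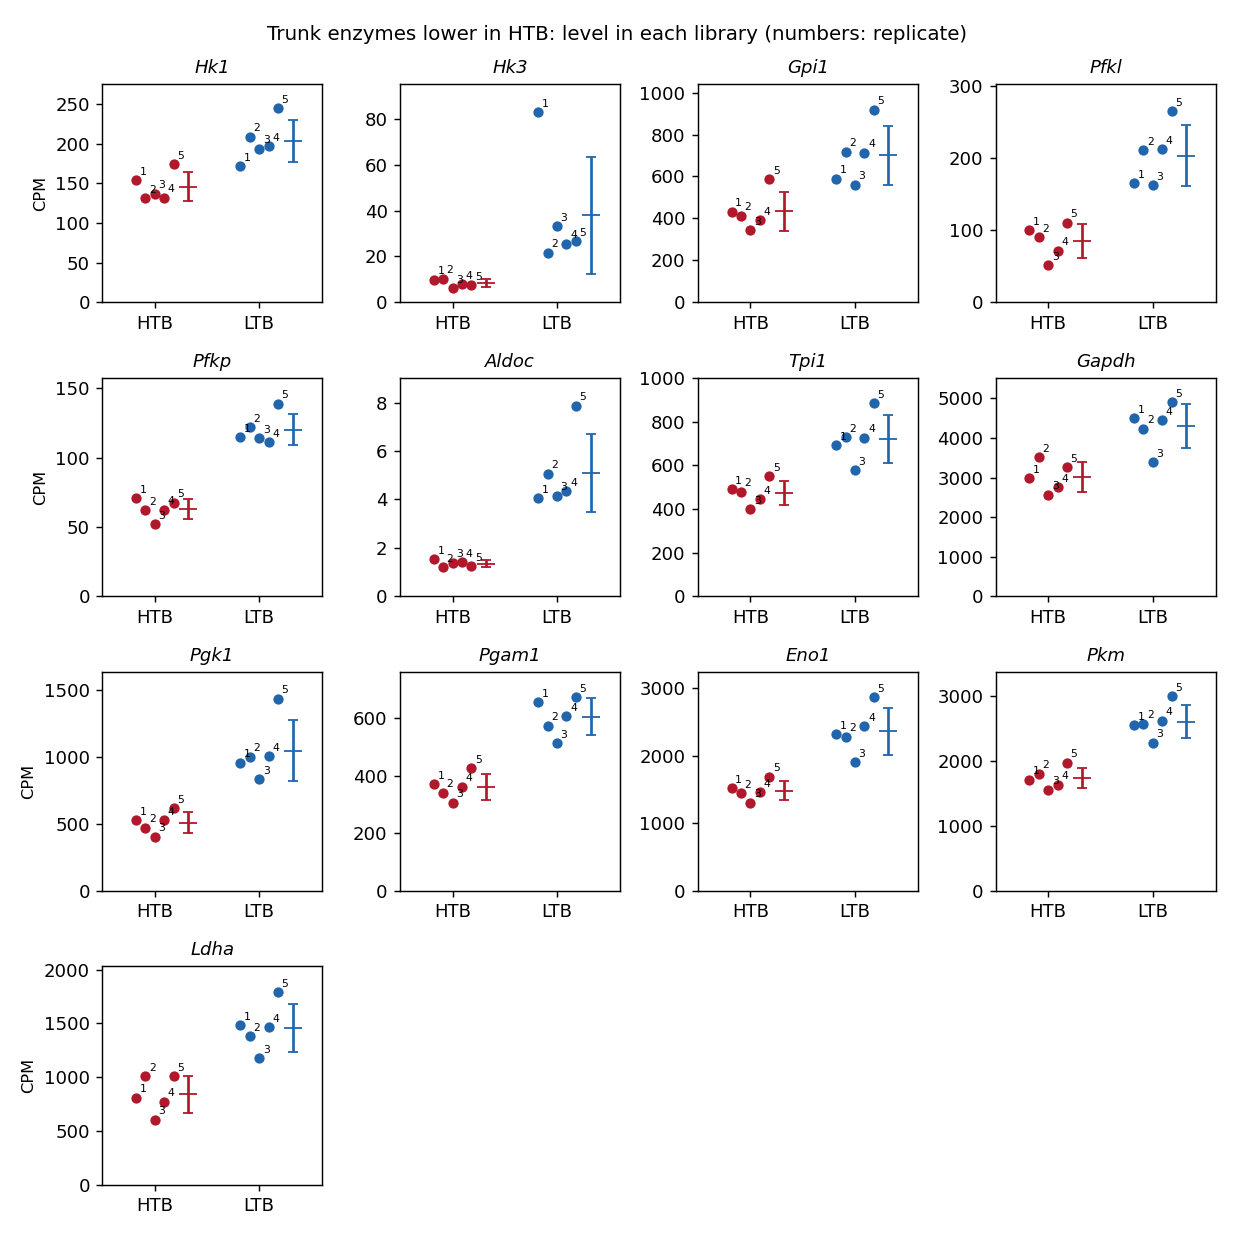
CPM in each library of the 13 trunk genes called lower in HTB, with HTB left of LTB, replicate numbers beside the points, and the mean and SD of the 5 libraries as a bar beside each group. In 10 of the panels every HTB point lies below every LTB point, the exceptions being Hk1, Gpi1 and Gapdh.

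Within a group, the 13 fallen trunk genes were often highest and lowest in the same libraries. LTB replicate 5 was the highest of its group in 12 of the 13 and LTB replicate 3 the lowest in 9. HTB replicate 3 was the lowest of its group in 11 and HTB replicate 5 the highest in 8. The falls were unequal in size, with log2 fold changes between -2.20 (Hk3) and -0.48 (Hk1), and in 7 of the 13 the HTB mean was under 60% of the LTB mean. Ranked by mean CPM per kb of exon over all 10 libraries, the highest gene of its step fell in 10 of the 11 steps, the exception being Aldoa, and in 11 of 11 without HTB replicate 2. Within HTB alone the phosphofructokinase of highest mean was Pfkm, at 37.1 ± 37.2 CPM per kb against 22.7 ± 6.26 for Pfkl (SD, n = 5), and Pfkm did not fall. That order rested on HTB replicate 2, where Pfkm had 104 CPM per kb. Without that library the HTB means were 20.5 ± 1.38 for Pfkm and 22.3 ± 7.16 for Pfkl (SD).

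Per kb of exon, Gapdh was the highest trunk gene, at 2018 ± 254 CPM per kb in HTB and 2873 ± 373 in LTB (SD, n = 5 each). Pkm followed in both groups, at 667 ± 61.8 in HTB and 999.8 ± 98.7 in LTB, then Eno1, at 583 ± 55.6 in HTB and 929 ± 136 in LTB. In LTB, Pkm and Eno1 lie within each other's SD, and the SDs of Ldha, at 769 ± 117, and Aldoa, at 676 ± 87.1, overlap. The hexokinase and phosphofructokinase genes were all far lower, with Hk1 at 30 ± 3.8 in HTB and 41.9 ± 5.51 in LTB, and Pfkl at 22.7 ± 6.26 in HTB and 54.4 ± 11.3 in LTB.

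Several muscle and fat isoenzymes were high in HTB replicate 2 alone, the library with the muscle and fat markers. Pgam2, the muscle phosphoglycerate mutase, had 0.692, 89.8, 0.805, 0.833 and 0.989 CPM in HTB and 0.492, 0.778, 0.727, 0.649 and 0.845 CPM in LTB, a log2 change of 4.73 ± 1.56 (SE, with adjusted p = 0.0755) with that library and 0.25 ± 0.23 (adjusted p = 0.432, edgeR) without it. Eno3, the muscle enolase, had 59.2, 269, 46.3, 52.1 and 56.6 CPM in HTB and 63.5, 64.2, 66.4, 74.9 and 70.5 CPM in LTB, and its log2 fold change turned sign, at 0.51 ± 0.46 (adjusted p = 0.496) with the library and -0.34 ± 0.08 (adjusted p = 0.0182) without it. Pck1, the cytosolic PEP carboxykinase of liver, kidney and fat, had 0, 69.6, 0, 0 and 0 CPM in HTB and 0.0757, 0, 0.598, 0 and 0 CPM in LTB. Fbp2, the muscle fructose-1,6-bisphosphatase, had 0.109, 5.56, 0, 0.0362 and 0.11 CPM in HTB and 0, 0.0389, 0.0427, 0 and 0 CPM in LTB. Neither Pck1 nor Fbp2 was tested, since outside HTB replicate 2 they were near 0. The part of the muscle and fat markers, which summed to 15826 and 4005 CPM in that library, in these levels was not tested. The authors' deposited table lists log2 fold changes of 4.73 for Pgam2 (q = 0.0048) and 6.13 for Fbp2 (q = 0.00996).

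**Figure D3:**
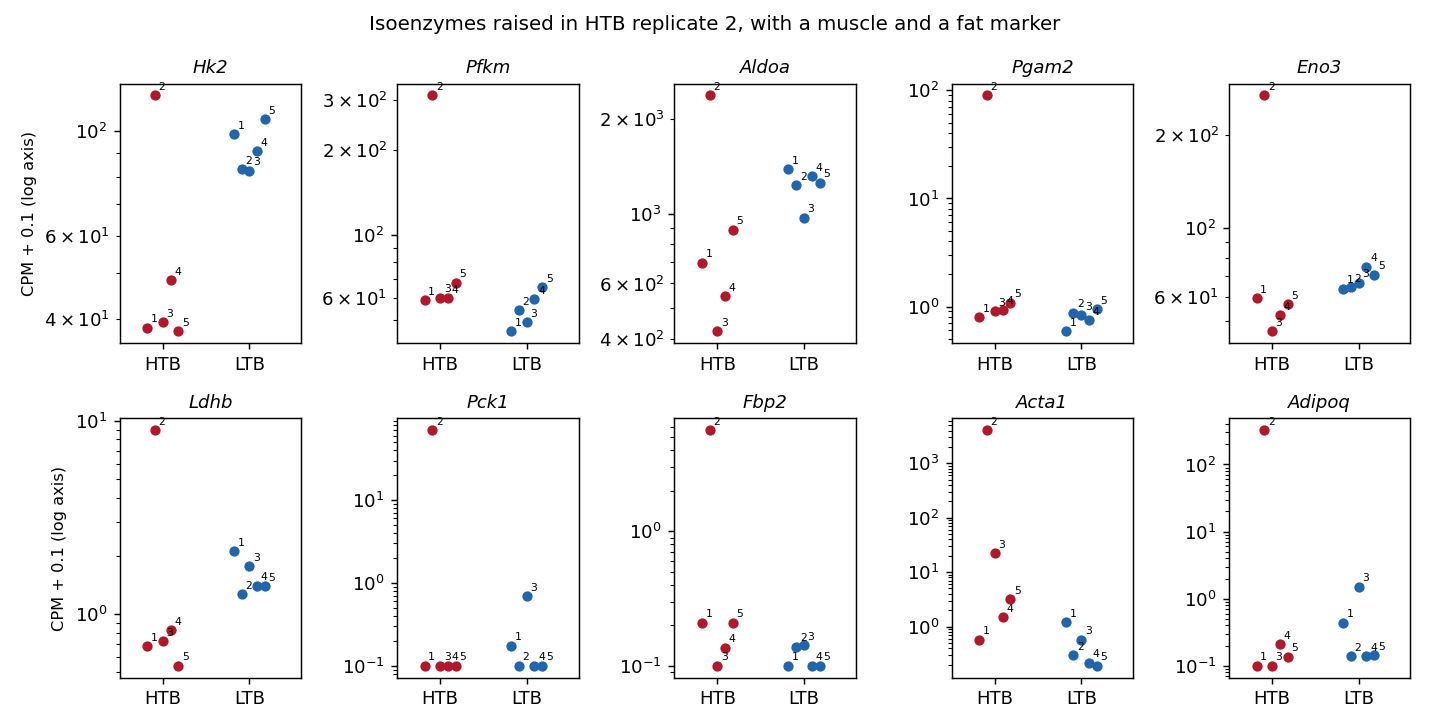
CPM + 0.1 on log axes in each library, HTB left of LTB, for 8 pathway genes and for the muscle marker Acta1 and the fat marker Adipoq, with replicate numbers beside the points. HTB replicate 2 is the highest point of every panel; in Hk2, Aldoa, Eno3 and Ldhb the other 4 HTB points lie below the LTB points.

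The balance between genes of a step was compared within each library, where depth cancels, as the log2 ratio of 2 genes. Besides isoenzymes, the pairs include genes of 1 step that differ in reaction, such as Galm and Minpp1 or the subunits of the pyruvate dehydrogenase complex. Over the pathway 60 pairs had both genes at a mean of at least 1 CPM, and 13 differed between the groups at an adjusted p under 0.05 (exact permutation test, two-sided, adjusted over the 60 pairs). Only 53 of the pairs also reached that mean without HTB replicate 2. Of these, 12 passed with all libraries and 14 without that library. The smallest p that 5 against 5 libraries allow is 0.00794. Of the 13, 7 were pairs of side-branch genes, 6 of them among the aldehyde dehydrogenases and the last Galm against Minpp1. On the trunk 6 of 17 pairs passed, and 9 without HTB replicate 2. In both counts 1 pair, Pgam1 against Pgam2, reached the minimum level only through the 89.8 CPM of Pgam2 in HTB replicate 2 and is left aside. So 5 and 8 remain, of the 15 trunk pairs at the minimum without that library. Without LTB replicate 1, 0 of the pairs passed, and the difference for Pfkl against Pfkm was then -1.94 with an adjusted p of 0.0595. With all libraries that difference was -1.93, and the smallest p without LTB replicate 1 was still 0.00794. Pairs at the smallest p share the same adjusted p, which rises as fewer pairs reach it. The count of 0 therefore does not show that the ratios rest on LTB replicate 1.

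Phosphofructokinase showed a change in balance. The log2 ratio of Pfkl to Pfkm averaged -0.05 ± 1.04 in HTB and 1.88 ± 0.12 in LTB (SD, n = 5 each), a difference of -1.93 (exact permutation test, adjusted p = 0.0366) and of -1.50 without HTB replicate 2 (adjusted p = 0.0317). The ratio of Pfkm to Pfkp averaged 0.44 ± 1.07 in HTB and -1.14 ± 0.16 in LTB, a difference of 1.58 (adjusted p = 0.0366), and of 1.11 without HTB replicate 2 (0.0317, exact permutation test). That call was lost without LTB replicate 1, 2, 3 or 5, where the adjusted p was 0.0733 to 0.0866. Of the phosphofructokinase CPM per kb, Pfkm made up 31.2 to 43.5% in the HTB libraries other than replicate 2 and 72.8% in that library, against 17.4 to 19.2% in LTB. Pfkl made up 30.2 to 43.6% in those HTB libraries and 17.1% in HTB replicate 2, against 50.3 to 56.8% in LTB. The ratio of Pfkl to Pfkp differed by -0.35 and did not pass (adjusted p = 0.141, exact permutation test).

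Among glucose kinases, Hk3 lost share. The ratio of Hk1 to Hk3 was 1.54 higher in HTB on the log2 scale, at 4.14 ± 0.37 in HTB and 2.60 ± 0.91 in LTB (SD, n = 5 each; exact permutation test, adjusted p = 0.0366). That call was lost without HTB replicate 3 (0.0595), HTB replicate 5 (0.0635) or LTB replicate 1 (0.0595). Hk3 made up 3.45 to 5.09% of the step's CPM per kb in HTB and 8.05 to 24.7% in LTB. Without HTB replicate 2 the ratio of Hk1 to Hk2 was also higher in HTB, by 0.73 (adjusted p = 0.0317, exact permutation test), where with that library the difference was 0.38 (0.539). At the mutase step the ratio of Bpgm to Pgam1 was 1.06 higher in HTB (adjusted p = 0.0366, exact permutation test). Pgam1 still made up 95.8 to 97.1% of that step's CPM per kb in the HTB libraries other than replicate 2, 62.7% in that library and 98.1 to 98.5% in LTB.

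**Figure D4:**
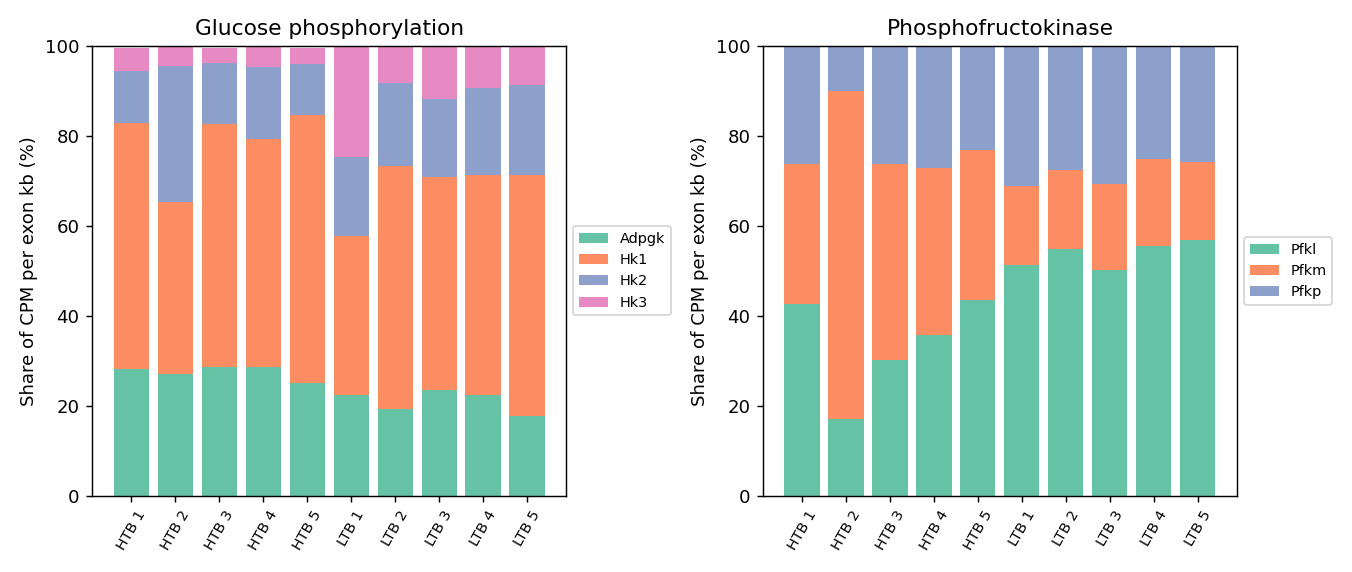
Share of each isoenzyme in the summed CPM per kb of exon of its step, in percent, for the glucose kinases (left) and phosphofructokinases (right), 1 bar per library with HTB left of LTB. Forms under 0.5% in every library count in the sum and are not drawn; the Pfkm share is 72.8% in HTB replicate 2, 31.2 to 43.5% in the other HTB libraries and 17.4 to 19.2% in LTB.

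The 4 genes of the pyruvate dehydrogenase complex had log2 fold changes near 0, with a median of 0.06. EdgeR called 0 of them in either direction, also at an unadjusted p under 0.05, as did DESeq2 and limma voom. Over all tested genes edgeR called 7.51% lower and 3.91% higher, so a count of 0 in 4 genes says little. Pdha1, the catalytic E1 alpha subunit, had 170.0, 251, 173, 188 and 168 CPM in HTB and 170.1, 171, 180.1, 164 and 154 CPM in LTB, with a log2 fold change of 0.18 ± 0.11 (adjusted p = 0.303) and of 0.06 ± 0.06 without HTB replicate 2, its highest library. Dlat, the E2 acetyltransferase, Dld, the shared E3 subunit, and Pdhb, the E1 beta subunit, had log2 fold changes of 0.04 ± 0.07, 0.04 ± 0.08 and 0.08 ± 0.08 (SE). The groups overlapped in all 4 genes.

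Gluconeogenesis reverses the trunk with a few enzymes of its own, and only 2 of the 7 listed were expressed widely enough to be tested. Pck2, the mitochondrial PEP carboxykinase, had 107, 96.2, 106, 109.8 and 83.5 CPM in HTB and 99.6, 101, 108, 118 and 94.4 CPM in LTB, a log2 change of -0.05 ± 0.09 (SE, with adjusted p = 0.714). G6pc3, the glucose-6-phosphatase of most tissues, averaged 33.4 ± 2.5 CPM in HTB and 33.4 ± 4.71 CPM in LTB (SD, n = 5 each), with a log2 fold change of -0.00 ± 0.10 (adjusted p = 0.998, edgeR). Neither passed, also at an unadjusted p under 0.05, in DESeq2 or in limma voom. The liver enzymes Fbp1 and G6pc and the islet enzyme G6pc2 stayed at or under 0.083 CPM in every library, which is not detectable at this depth as a difference.

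In the side branches 1 of 17 tested genes fell, 0 rose and the median log2 fold change was -0.03. Over all tested genes 7.51% were called lower and 3.91% higher. The gene was Aldh1b1, a mitochondrial aldehyde dehydrogenase, with 0.692, 0.747, 1.13, 0.87 and 0.769 CPM in HTB and 2.5, 1.63, 1.97, 1.41 and 1.38 CPM in LTB and a log2 change of -1.07 ± 0.24 (SE, with adjusted p = 0.0177, edgeR). Galm, an aldose mutarotase, and Aldh3b1, another aldehyde dehydrogenase, also had all HTB libraries below all LTB libraries, and both missed the threshold at an adjusted p of 0.0507. DESeq2 called Aldh1b1, Galm and Aldh3b1 lower and Aldh2 higher, and limma voom called Aldh1b1 and Galm lower and 0 higher. At an unadjusted p under 0.05 edgeR placed 4 of the 17 lower and 3 higher, against 15.2% and 13.9% of all genes. Without HTB replicate 2, Galm, the phosphoglucomutase Pgm2 and the acetyl-CoA synthetases Acss1 and Acss2 were also called lower, with log2 fold changes of -0.64 ± 0.16, -0.56 ± 0.14, -0.75 ± 0.21 and -0.73 ± 0.19. That made 5 of the 17 lower and 0 higher, where 12.7% and 9.77% of the genes then tested were called lower and higher. Adh5 and Akr1a1, alcohol and aldehyde handling enzymes with log2 fold changes of -0.00 ± 0.06 and -0.03 ± 0.09, were near the median of all genes.

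Of the 10 genes outside the steps, Fam193a was called higher, at 88.2, 76.8, 91.6, 93.5 and 87.3 CPM in HTB and 56.7, 71.4, 65.3, 65.9 and 71.8 CPM in LTB, a log2 change of 0.40 ± 0.08 (SE, with adjusted p = 0.0111, edgeR). It was the only gene of the 73 called higher with all libraries. Without HTB replicate 2, Fam168a was also called higher (log2 fold change 0.31 ± 0.10) and Hspa12a, an atypical heat shock protein gene, lower (-0.59 ± 0.18). The remaining 7, of which Stpg2 was not tested, had no call in either fit. Among them were the pseudogene Gapdh-ps15 and Pdzd2, which had 25.1 CPM in HTB replicate 2 and at most 1.65 CPM in the other HTB libraries and 1.74 CPM in LTB.

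The remaining genes of the 73 were not tested because their counts were too low, 16 in all. Among them were the retrotransposed enolase Eno1b and the liver, islet, testis or muscle forms Pklr, Ldhal6b, Ldhc, Fbp1, Fbp2, G6pc, G6pc2 and Pck1. The alcohol and aldehyde dehydrogenases Adh4, Aldh1a3, Aldh3b2 and Aldh3b3, and Stpg2, were also among them. Pklr, the pyruvate kinase of liver and red cells, was at 0 in all HTB libraries and had 0.0389 CPM in 1 LTB library.

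Around the pathway, some of the genes of glucose and lactate transport were lower. Of 12 listed transport genes 10 were tested, 5 fell, 0 rose and 5 did not pass, where 7.51% of all tested genes fell and 3.91% rose. The median log2 fold change was -0.35 against 0.02 over all genes. Slc2a1, the glucose transporter GLUT1, had 68.6, 67, 70.8, 106 and 106 CPM in HTB and 160.2, 180.5, 145, 175 and 236 CPM in LTB, a log2 change of -1.10 ± 0.18 (SE, with adjusted p = 0.00468). Slc16a3, the lactate exporter MCT4, had 33.3, 40, 23.2, 33.8 and 39.3 CPM in HTB and 132, 96.5, 77.5, 89 and 126 CPM in LTB, a log2 change of -1.62 ± 0.18 (SE, with adjusted p = 0.000935, edgeR). Neither overlapped between the groups. Slc2a3, the high-affinity glucose transporter GLUT3, Slc2a6, and Bsg, the chaperone of lactate transporters, fell by 1.52, 0.79 and 0.55 on the log2 scale. Of the genes that did not pass, the lactate transporters Slc16a1 and Slc16a7 had log2 fold changes of -0.15 ± 0.10 and 0.60 ± 0.54, and the glucose transporter Slc2a8 of 0.08 ± 0.12. The call for Slc2a6 was lost in 4 of the 10 fits that leave out 1 library. At an unadjusted p under 0.05 edgeR placed 0 transport genes higher, as did the adjusted calls of DESeq2 and limma voom.

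Of 12 tested regulators of flux, the pyruvate dehydrogenase kinases, which switch the complex off, gave all 3 calls. Among all tested genes 11.4% were called in either direction. Pdk1 had 76.5, 43.8, 52.3, 73.2 and 107 CPM in HTB and 109, 127, 105, 122 and 159 CPM in LTB (log2 fold change -0.82 ± 0.22, adjusted p = 0.0368), and Pdk3 was lower by 0.28 on the log2 scale (adjusted p = 0.0195). Pdk2 was higher, at 23.7, 59.3, 25.3, 24.8 and 31.9 CPM in HTB and 9.43, 17.5, 12.3, 18.2 and 17.7 CPM in LTB (log2 fold change 1.13 ± 0.28, adjusted p = 0.0296, edgeR). The 3 calls were each lost without some single library, Pdk1 in 8 of 10 such fits, Pdk2 in 3 and Pdk3 in 2. Pfkfb3, which makes the activator of phosphofructokinase, had 15.1, 82.3, 16.5, 22.8 and 13.7 CPM in HTB and 54, 24.6, 34.6, 32.8 and 25.2 CPM in LTB and passed only without HTB replicate 2 (log2 fold change -1.01 ± 0.24, adjusted p = 0.0162). Without that library 4 of the 12 regulators were called lower and 2 higher, where 12.7% and 9.77% of the genes then tested were.

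The neighbouring pathways showed few calls, as did all tested genes, of which 7.51% were called lower and 3.91% higher. Without HTB replicate 2 these shares were 12.7% and 9.77%. In lists this short, counts near such shares say little about the pathways. Of 8 tested genes of the pentose phosphate pathway edgeR called 0, as did DESeq2 and limma voom, and 2 were lower at an unadjusted p under 0.05. The 3 of smallest p were Pgd, 6-phosphogluconate dehydrogenase, Pgls and H6pd, with log2 fold changes of -0.22 ± 0.08, -0.26 ± 0.11 and 0.19 ± 0.10 (SE). Of 8 tested genes of glycogen metabolism edgeR, DESeq2 and limma voom called 0, and 1 was higher at an unadjusted p under 0.05. Smallest in p were Pygm, the muscle glycogen phosphorylase, which had 537 CPM in HTB replicate 2, and Gys1, with log2 fold changes of 6.51 ± 2.10 and -0.36 ± 0.17 (SE). Without HTB replicate 2, Pgd (log2 fold change -0.27 ± 0.08) and the transaldolase Taldo1 (-0.56 ± 0.15) of the pentose phosphate pathway were called lower. So were Gys1, glycogen synthase (-0.55 ± 0.10), and Pygl, the liver glycogen phosphorylase (-1.88 ± 0.21). Of 19 tricarboxylic acid cycle genes 1 was called, Suclg2, a succinyl-CoA ligase subunit that was higher (log2 fold change 0.42 ± 0.08, adjusted p = 0.0122), and the median was 0.01. The next by p were Pcx, pyruvate carboxylase, and Sdha, with log2 fold changes of 2.91 ± 1.25 and 0.19 ± 0.10. Pcx had 112 CPM in HTB replicate 2 and was instead called lower without that library (-0.71 ± 0.19, adjusted p = 0.0256), as were Cs, citrate synthase (-0.39 ± 0.07), and Sdhb (-0.28 ± 0.07), 3 of the 19. Of 8 tested transcription factors that act on glycolysis genes, Hif1a was lower, at 137, 144, 130.1, 149.6 and 129.9 CPM in HTB and 208, 155, 189.8, 159 and 172 CPM in LTB (log2 fold change -0.36 ± 0.09, adjusted p = 0.0278, edgeR), and that call was lost without HTB replicate 1, 3 or 5 or LTB replicate 3. Foxk1 (0.20 ± 0.09) and Arnt, the partner of HIF-1 alpha (0.19 ± 0.10), were next by p, and Myc had a log2 fold change of 0.07 ± 0.07 (adjusted p = 0.515).

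**Figure D5:**
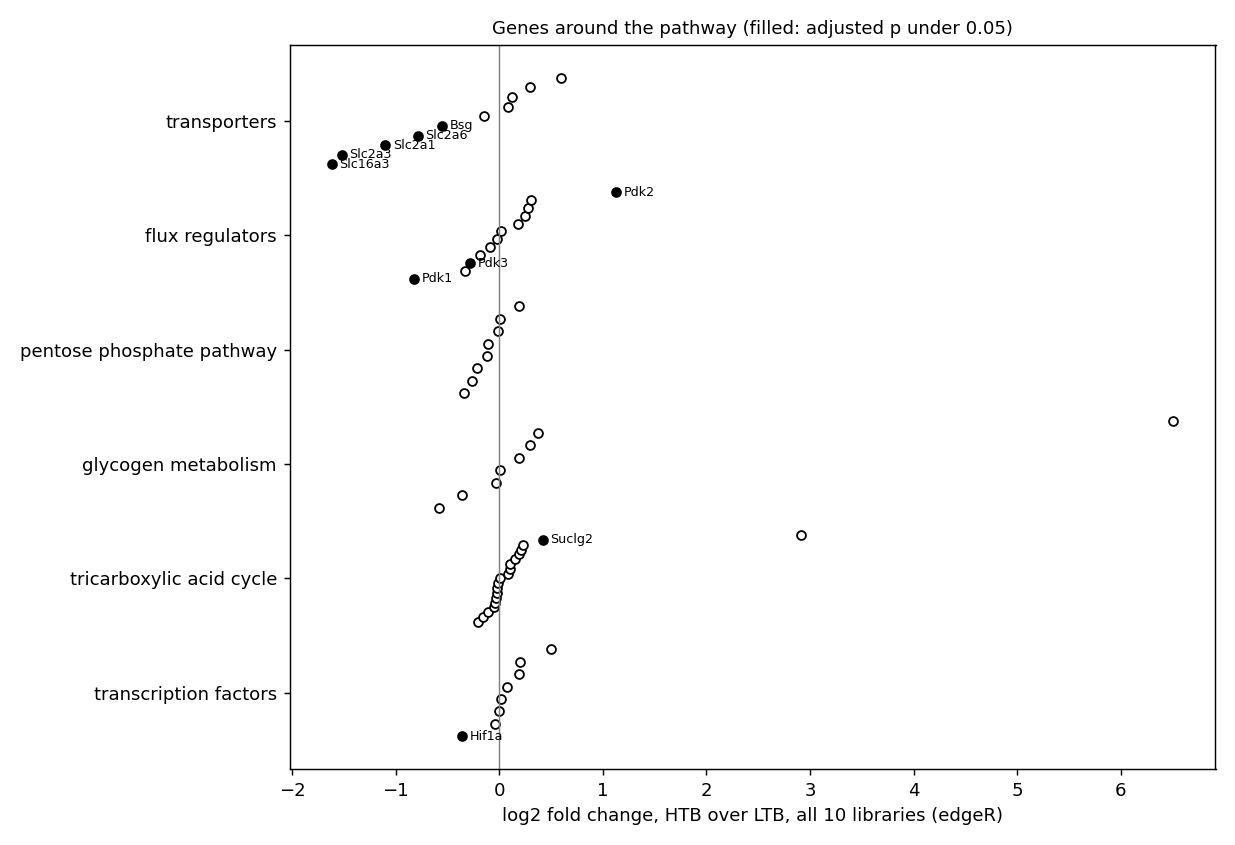
Log2 fold change, HTB over LTB, of the tested genes of 6 related lists with all 10 libraries, 1 point per gene, filled and named where the adjusted p was under 0.05. The transport genes hold 5 of the 10 named points, all left of 0, and Pygm and Pcx, with log2 fold changes of 6.51 and 2.91, are far to the right and had 537 and 112 CPM in HTB replicate 2, their highest library.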

How the data were processed

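Whole tumour RNA was extracted with RNeasy columns, and libraries were made by a SMARTer kit for mRNA, as the labels state. The deposited table holds expected counts, that is, estimated read counts per gene, which the authors made on GRCm38 (mm10) per the submitters' processing notes. No aligner, counter or strand setting is named: these were not given in the sources used here. The deposited log2 fold changes and q-values are those of the authors, from DESeq2 per the file headers.

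The estimated counts, 86.4% of them whole to within 1e-09, were rounded, and 1 line without a gene was left out. HTB and LTB were compared with edgeR 4.0.16 (R 4.3.3; TMM factors 0.975 to 1.03, filterByExpr, quasi-likelihood test), and p-values were adjusted over all 13469 genes tested. Alternatives used DESeq2 1.42.0 and limma 3.58.1, and the code was tested on simulated data. Isoenzyme ratios (CPM + 0.1) were tested by exact permutation (smallest p 0.00794). Exon lengths were those of GENCODE M21 on GRCm38, for 72 of the 73 genes. Promoter windows were those of RefSeq.

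The 73 genes and the related lists were chosen with earlier results of these data known. Named were all tested genes of the trunk, the pyruvate dehydrogenase complex and the bypass, other genes that passed, and the 3 of smallest p of each related list, except for a few genes that are not reported here. Genes outside this rule were chosen after their values were seen. They are those singled out for HTB replicate 2, those named as passing only without it, Galm, Aldh3b1, Adh5, Akr1a1, Slc16a1, Slc16a7, Slc2a8, Pfkfb3 and Myc. Of pairs of libraries within a group, none agreed within sampling noise (chi-square per degree of freedom of at least 10.6).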

Additional observations from a re-analysis of the deposited data

Results flagged for a closer look

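In 13 of 86 checks of a gene within a group, 1 library lay apart from the other 4 by Dixon's test for 5 samples (critical value 0.71), which chance passes in about 1 of 20 groups. The gap was in HTB replicate 2 in 9 of the 13. That library had 119 CPM of Hk2 (37.6 to 48.3 in the other HTB libraries), 310.5 of Pfkm (58.6 to 67.6), 2383 of Aldoa (423 to 890.2), 89.8 of Pgam2 (0.692 to 0.989) and 269 of Eno3 (46.3 to 59.2). It also had 8.84 CPM of Ldhb (0.44 to 0.725), 251 of Pdha1 (168 to 188), 127 of Pdhb (96 to 103) and 59.3 of Pdk2 (23.7 to 31.9). Its skeletal muscle marker sum was 15826 CPM and its fat cell marker sum 4005 CPM, and their part in these levels was not tested.

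In LTB, replicate 1 had 82.9 CPM of Hk3, against 21.6 to 33.3 in the other 4 libraries. LTB replicate 5 had 7.87 CPM of Aldoc (4.05 to 5.06 in the others) and 1438 CPM of Pgk1 (835 to 1005). LTB replicate 4 was the low library for Pdk3, at 42.6 CPM (47.6 to 49).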

How the results depend on the processing

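The 14 genes of the 73 called lower became 9 at an adjusted p under 0.01, and 11 to 23 when 1 library was left out, 23 without HTB replicate 2. Without HTB replicate 2 and LTB replicate 1 together, an alternative chosen after seeing the data, 24 were lower and 3 higher. The 1 gene called higher became 3 with DESeq2, 0 under 0.01, 4 under 0.1 and 1 to 2 with 1 library left out. Transport genes lower became 3 under 0.01. Regulators lower became 1 with no filter, 1 with the replicate block, 0 under 0.01, 0 to 4 with 1 library left out (0 without HTB replicate 3 or 4) and 5 without both. Regulators higher became 0 under 0.01, 0 to 2 with 1 left out and 2 without both. Lower genes of the pentose phosphate pathway, glycogen metabolism and the tricarboxylic acid cycle became 3, 2 and 3 without both, and 0 to 2, 0 to 2 and 0 to 3 with 1 left out. Glycogen genes higher became 1 under 0.1, and cycle genes higher 0 under 0.01. Hif1a, the 1 transcription factor lower, was lost with the replicate block (0 lower), under 0.01 (0) and in 4 fits with 1 library left out (0 to 1), and kept without both (1).

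Among single genes, signs turned for Hkdc1 (-0.00 with limma voom, -0.04 to 0.40 with 1 or both libraries left out), Eno2 (-0.12 to 0.11), Eno3 (-0.36 to 0.69), Eno4 (-0.00 with voom, -0.07 to 0.14), Dlat (-0.00 to 0.07), Pdhb (-0.00 to 0.11) and Pck2 (-0.09 to 0.01). Ldhb was -0.57 with voom, -0.63 with the replicate block and -1.32 to 0.85 with libraries left out. G6pc3 was 0.00 with DESeq2, its size factors and upper-quartile factors, 0.01 with voom, no filter and the block, and -0.05 to 0.08 with libraries left out. The cause was not tested. With the replicate block the call for Aldh1b1 was lost (adjusted p = 0.0539) and 14 of the 73 were lower. Replicate numbers gave correlations of 0.00164 to 0.109 between same-numbered libraries and did not pair them.

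The 13 gene pairs within a step became 8 at a mean of at least 5 CPM and 0 with the replicate block, where the smallest p is 0.0625. With 1 library left out they became 0 to 15 (0 without LTB replicate 1, where the smallest p was still 0.00794). Log2 ratio differences turned sign for Bpgm against Pgam2 (-1.59 to 0.04), Eno2 against Eno3 (-0.41 to 0.45) and Ldha against Ldhb (-0.71 to 0.31). Genes under about 0.1 CPM rest on a few reads, and no difference in them was detectable at this depth.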
